A study of Mus musculus with 15 samples.

Results

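The genes described here are 35 markers of the bone marrow niche, 19 of stromal cells and 16 of endothelial cells, read in 15 RNA-seq libraries of mouse haematopoietic stem cells (HSCs). They were taken by gene name from a list, out of 46120 genes counted, and all 35 were found. Each library was made from 100 sorted HSCs of wild type C57BL/6 mice aged 8 to 10 weeks. In the first experiment, HSCs were sorted on day 4 after 5-fluorouracil (5-FU, n = 4 libraries) and from untreated mice (Untreated, n = 4). In the second, HSCs were cultured with nifedipine, a blocker of L-type calcium channels (Nifedipine, n = 4), or without it (Control, n = 3), and cells that had divided at most 3 times were sorted. The sources used here state neither drug doses, culture time nor sort gates, nor that libraries of a group came from separate animals. The p-values below therefore measure the spread between these libraries.

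HSCs lie in the marrow beside perivascular stromal cells and sinusoidal endothelium. Stromal cells that carry the leptin receptor secrete the chemokine Cxcl12 and stem cell factor (Kitl), which hold and maintain HSCs. Endothelial cells are held together by VE-cadherin (Cdh5) and grow under the VEGF receptor Kdr, and sinusoidal endothelium clears waste from the blood through the scavenger receptor Stab2. HSCs arise from endothelium in the embryo and go on using several of its genes, among them Tie1, Egfl7, Emcn and Pecam1. A niche marker read in sorted HSCs can thus come from the HSCs or from other cells or free RNA taken up with them, and in bulk RNA fewer cells of a type and less RNA per cell cannot be told apart. All levels below are per-million counts (CPM), a gene's exon reads relative to all exon reads of its library, unless another unit is named.

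Libraries held 9775640 to 17397392 exon reads after 5-FU, 6171730 to 16685285 in Untreated, 17582453 to 22372771 with nifedipine and 20145079 to 26673045 in Control. HSC genes were read in every library: 12 HSC identity genes summed to 3994 to 4340 CPM after 5-FU, against 5925 to 6433 CPM in Untreated. In culture they summed to 2667 to 2952 CPM with nifedipine, against 1658 to 1734 CPM in Control. The niche markers were spread far less evenly than this. Of the 8 libraries of fresh cells, Untreated 1, Untreated 2, Untreated 4 and 5-FU 4 held far more stromal RNA than the rest.

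**Figure D1:**
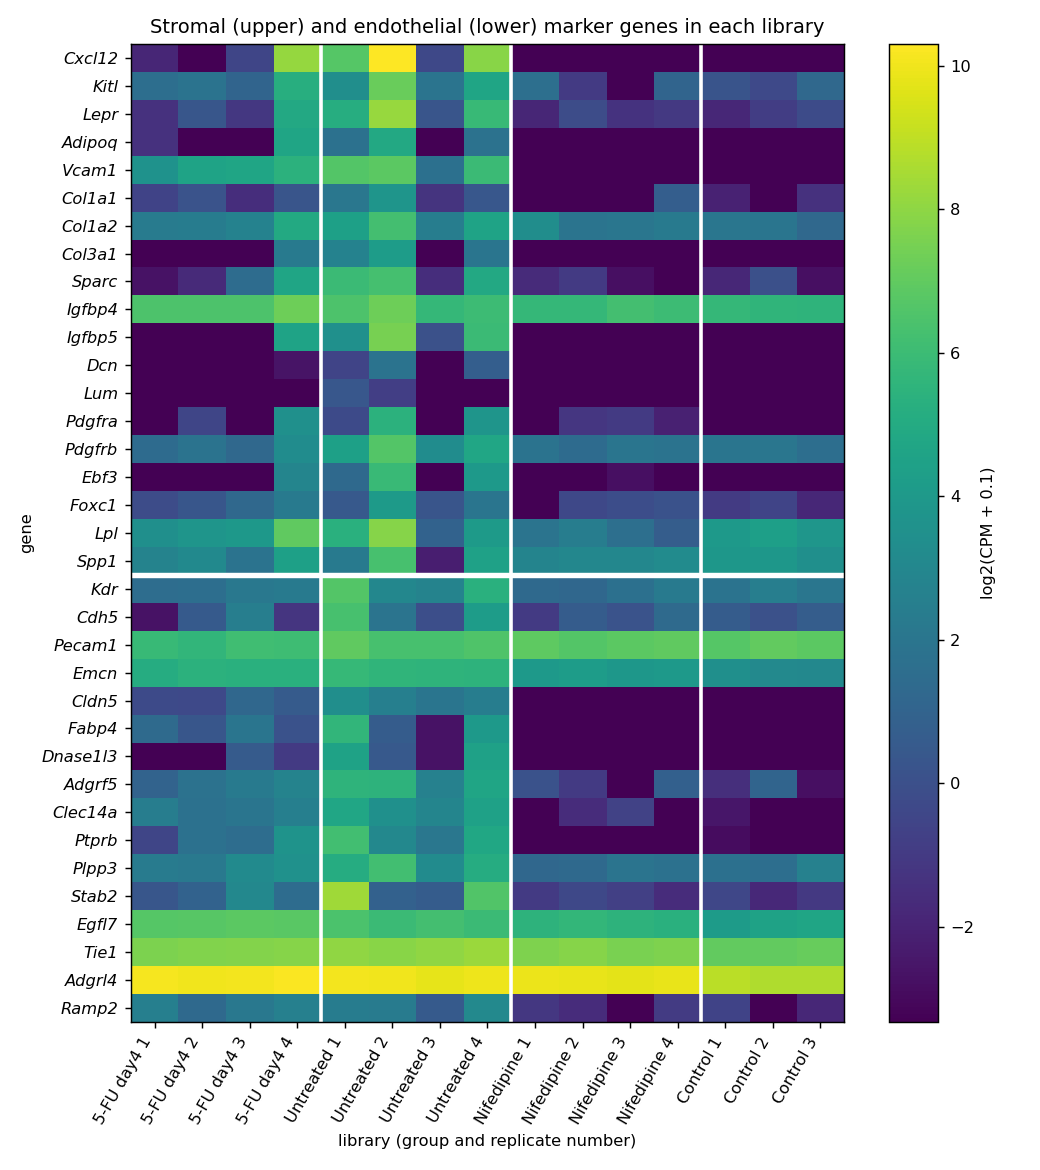
Level of each of the 35 genes (rows) in each of the 15 libraries (columns), as log2(CPM + 0.1). Stromal genes lie above the white line and endothelial genes below it. The stromal rows are bright in Untreated 1, 2 and 4 and in 5-FU 4, several endothelial rows are bright in Untreated 1 and 4, and Adgrl4, Tie1, Egfl7, Pecam1 and Igfbp4 are bright in all libraries.

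Per kilobase of exon, the most abundant of the 35 genes in every group was Adgrl4 (also called Eltd1), an adhesion G protein-coupled receptor of endothelium. The authors' RPKM values gave it a median of 82.5 RPKM after 5-FU, 61.8 in Untreated, 80.1 with nifedipine and 36.8 in Control. The next in order after 5-FU were Egfl7 at 20.9, Tie1 at 16.9 and Igfbp4 at 13.9 RPKM. In Untreated they were Tie1 at 17.6, Egfl7 at 11 and Igfbp4 at 9.48 RPKM. With nifedipine, and in Control, Tie1 came next (18.9 and 13 RPKM), then Pecam1 (11.4 and 11.3 RPKM). Within 5-FU, the ranges over libraries of Adgrl4, Egfl7 and Tie1 did not overlap (77.3 to 88.1, 20.6 to 21.6 and 16.1 to 17.5 RPKM), whereas that of Igfbp4 (12.9 to 22.9 RPKM) overlapped those of Tie1 and Egfl7. Egfl7 is a secreted protein of vessel walls, Tie1 an orphan receptor kinase that modulates angiopoietin signalling, and Igfbp4 a secreted binder of insulin-like growth factors.

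Adgrl4, Pecam1, Emcn, Egfl7 and Tie1 together held 96.8 to 98.3% of all reads on the 16 endothelial genes after 5-FU, 67.2 to 97% in Untreated, 99 to 99.5% with nifedipine and 98.2 to 98.7% in Control. Pecam1, Emcn, Egfl7 and Tie1 also stand on a list of 14 endothelial genes known in HSCs. The other 11 endothelial genes are therefore described apart. The promoters of 3 of the abundant genes are shown first, since these genes were higher with nifedipine, followed by those of Stab2 and Cxcl12, an endothelial and a stromal gene whose levels lay far apart between fresh libraries. Each is the 250 bases before the gene's start as RefSeq places it on GRCm38.p6, the build behind the mm10 coordinates of the files; for Emcn the files place the start inside this window, just before its end. They are written 5′ to 3′ on the gene's strand. Capitals mark AGGAAG or its reverse complement CTTCCT, a core to which ETS factors such as Erg and Fli1 can bind.
Adgrl4, chr3:151437632-151437881, plus strand: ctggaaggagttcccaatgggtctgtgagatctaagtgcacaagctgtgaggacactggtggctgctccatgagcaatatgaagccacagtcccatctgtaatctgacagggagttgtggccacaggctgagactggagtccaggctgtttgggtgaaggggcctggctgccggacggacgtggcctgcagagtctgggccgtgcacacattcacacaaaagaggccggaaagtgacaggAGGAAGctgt
Tie1, chr4:118489850-118490099, minus strand: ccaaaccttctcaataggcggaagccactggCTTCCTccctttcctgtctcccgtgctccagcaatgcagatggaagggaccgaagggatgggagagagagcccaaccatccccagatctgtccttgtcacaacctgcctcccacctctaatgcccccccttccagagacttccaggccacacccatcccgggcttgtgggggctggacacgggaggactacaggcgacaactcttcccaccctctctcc
Emcn, chr3:137340828-137341077, plus strand: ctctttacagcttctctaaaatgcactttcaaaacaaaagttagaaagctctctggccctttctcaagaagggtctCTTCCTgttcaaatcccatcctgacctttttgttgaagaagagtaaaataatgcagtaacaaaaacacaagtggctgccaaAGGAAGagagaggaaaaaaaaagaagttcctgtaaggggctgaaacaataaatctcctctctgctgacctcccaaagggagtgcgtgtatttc
Stab2, chr10:87007943-87008192, minus strand: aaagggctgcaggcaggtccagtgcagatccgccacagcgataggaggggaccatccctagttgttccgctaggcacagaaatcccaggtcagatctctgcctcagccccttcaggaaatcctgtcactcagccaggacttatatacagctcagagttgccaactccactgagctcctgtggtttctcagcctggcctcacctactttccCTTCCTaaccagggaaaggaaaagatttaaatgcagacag
Cxcl12, chr6:117168285-117168534, plus strand: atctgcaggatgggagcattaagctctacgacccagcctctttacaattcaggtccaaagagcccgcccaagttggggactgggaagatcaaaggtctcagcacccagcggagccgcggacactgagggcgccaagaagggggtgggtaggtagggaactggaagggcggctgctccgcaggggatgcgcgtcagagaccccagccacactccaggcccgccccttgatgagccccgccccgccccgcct

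In the files, Adgrl4 spans chr3:151437882-151545081 with 4106 bases of exon, Tie1 chr4:118471191-118489849 with 3879, Emcn chr3:137341061-137431069 with 1478, Stab2 chr10:86841210-87007942 with 8133 and Cxcl12 chr6:117168535-117181368 with 7161. RefSeq promoters were at hand for 23 of the 35 genes. The 6 letters, on either strand, stood in 7 of 10 endothelial promoters (Emcn, Adgrf5, Plpp3, Stab2, Egfl7, Tie1 and Adgrl4; 70%) and in 2 of 13 stromal ones (Lepr and Spp1; 15.4%). Over all 27025 genes with a promoter in the table the share was 32.3%. Stab2, which was low in most libraries, held the letters as did the abundant Adgrl4 and Tie1. A match of letters is a description of these windows and no evidence of binding.

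In freshly sorted cells the stromal genes were high in some libraries of either group and low in the rest. Their summed level was 132, 154, 151 and 838 CPM in 5-FU 1 to 4, against 526, 2897, 82.8 and 673 CPM in Untreated 1 to 4. Untreated 3 was the lowest of all 8 and lay below the 5-FU libraries, while 5-FU 4 lay above Untreated 1, 3 and 4. Igfbp4, which was at 54.4 to 157 CPM in every fresh library, made up 59.1 to 67.7% of the stromal sum in 5-FU 1 to 3 and 65.7% in Untreated 3. Without it the 18 remaining genes summed to 42.8, 62.7, 61.7 and 682 CPM in 5-FU 1 to 4, against 437, 2740, 28.4 and 608 CPM in Untreated 1 to 4. All 17 stromal genes with more than 3 reads after 5-FU were highest in 5-FU 4, and 18 of 19 were highest among untreated libraries in Untreated 2, the exception being Lum in Untreated 1. Untreated 3 was the lowest of its group for 18 of 19, and Lum had no read there or in Untreated 4.

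Cxcl12, the retention factor for HSCs, was at 0.172, 0, 0.61 and 283 CPM in 5-FU 1 to 4, against 106, 1261, 0.676 and 235 CPM in Untreated 1 to 4. It was thus all but missing from 3 of 4 libraries after 5-FU and from Untreated 3, and the groups overlapped. Lepr, the leptin receptor by which these stromal cells are traced, followed the same libraries, at 0.287, 1.13, 0.366 and 29.2 CPM against 36.1, 290, 1.11 and 58.4 CPM. Kitl was at 2.93, 3.48, 2.01 and 36.6 CPM after 5-FU, against 10.5, 144, 3.69 and 26.1 CPM in Untreated. The transcription factor Ebf3, which holds back bone formation in the niche, had no read in 5-FU 1 to 3 or in Untreated 3, and stood at 7.21 CPM in 5-FU 4, against 2.4, 60.1 and 16.3 CPM in Untreated 1, 2 and 4. Foxc1, a further transcription factor of these cells, was at 0.805 to 4.63 CPM after 5-FU, against 1.11 to 16.9 CPM in Untreated. Pdgfra, the PDGF receptor of mesenchyme, was at 0, 0.614, 0 and 11.2 CPM, against 0.719, 43.3, 0 and 13.8 CPM.

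The matrix genes showed the same libraries. Sparc, a collagen-binding matrix protein, was at 0.0575, 0.205, 2.75 and 26.1 CPM in 5-FU 1 to 4, against 63, 77.9, 0.246 and 30.3 CPM in Untreated 1 to 4. The fibrillar collagen Col3a1 had no read in 5-FU 1 to 3 or in Untreated 3, and stood at 4.76 CPM in 5-FU 4, against 6.47, 18.1 and 3.84 CPM in Untreated 1, 2 and 4. Col1a2 never reached 0: it was at 5, 5.22, 6.53 and 30.8 CPM after 5-FU, against 21.2, 76.3, 5.41 and 23.9 CPM in Untreated. Spp1 (osteopontin), a secreted phosphoprotein of bone and of many blood cells, was at 3.48 to 21.6 CPM after 5-FU, against 0.123 to 79.9 CPM in Untreated. Igfbp5, a secreted partner of insulin-like growth factors like Igfbp4, followed the libraries of Cxcl12, with no read in 5-FU 1 to 3 and 24.1 CPM in 5-FU 4, against 11.3, 183, 0.922 and 61.6 CPM in Untreated 1 to 4. The small proteoglycans Dcn and Lum were the rarest genes of the list, with at most 3.56 CPM in any library. Lum had no read after 5-FU, against 23 in Untreated, at least 8.42-fold lower with 3 reads over the group as the floor. Dcn had 1 read after 5-FU, and the ratio of its library-scaled reads to that of Untreated was 0.0166 (95% counting interval 0.000412 to 0.0962). Without molecular identifiers, such floors and intervals reflect counting error and nothing else.

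Adipoq and Lpl, which Lepr-positive stroma shares with fat cells, varied more against Cxcl12 than Kitl did. Adipoq was at 0.287, 0, 0 and 25.7 CPM in 5-FU 1 to 4, against 3.3, 29.5, 0 and 3.36 CPM in Untreated 1 to 4. Lpl, the lipoprotein lipase, was at 11, 13.5, 15.4 and 124 CPM after 5-FU, against 40.4, 226, 1.84 and 16.8 CPM in Untreated. Per 100 Cxcl12 reads, 5-FU 4 held 9.08 Adipoq and 43.9 Lpl reads, against 3.11 and 38.1 in Untreated 1, 2.34 and 17.9 in Untreated 2, and 1.43 and 7.13 in Untreated 4. It held 10.3 Lepr reads per 100 Cxcl12 reads, against 34.1, 23 and 24.8 in those untreated libraries, while Kitl stood at 13 against 9.94, 11.4 and 11.1. Kitl thus kept nearly the same ratio to Cxcl12 in the 4 libraries, and Adipoq and Lpl did not. This was not particular to the genes shared with fat cells. Vcam1 ran from 9.36 to 96.1 and Sparc from 6.18 to 59.4 reads per 100 Cxcl12 reads, while Foxc1 kept to 1.24 to 1.64. Of 10 adipocyte genes, Adipoq and Lpl among them, 3 to 6 had no read in the 5-FU libraries, against 1 to 5 in the untreated ones. These ratios come from a single 5-FU library and were not tested.

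Of the 19 stromal genes, 17 had enough reads to be tested between 5-FU and Untreated, and 2 passed, both lower (edgeR quasi-likelihood test, Benjamini-Hochberg adjusted p of 0.05 or less over all genes). Of all 13382 genes tested, 50.5% passed, 26.8% higher and 23.8% lower. The median log2 difference over the 17 was -2.15, against -0.02 over all genes. Pdgfrb, the PDGF receptor of perivascular cells, was at 2.64, 3.48, 2.32 and 9.59 CPM in 5-FU 1 to 4, against 21.1, 99, 9.89 and 26.7 CPM in Untreated 1 to 4. No 5-FU library reached the lowest untreated one, and the log2 difference was -3 (SE 0.71, adjusted p = 0.00518). It was -2.01 without Untreated 2 (adjusted p = 0.0085) and -3.69 without 5-FU 4 (adjusted p = 0.0036). Col1a1, the main bone collagen chain, was at 0.575, 1.02, 0.244 and 1.12 CPM after 5-FU, against 4.14, 13.6, 0.307 and 1.19 CPM in Untreated. It fell by 2.57 and only just passed (SE 0.97, adjusted p = 0.0479). The Col1a1 call was lost without Untreated 1 (adjusted p = 0.0744), without Untreated 2 (-1.28, adjusted p = 0.23), and without any single 5-FU library (adjusted p = 0.0677 to 0.114).

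The other 15 tested stromal genes did not pass, although most differed by large factors in the means. Cxcl12 averaged 70.9 ± 141 CPM after 5-FU and 401 ± 581 CPM in Untreated (SD, n = 4 each; log2 difference -2.39, adjusted p = 0.289). Lepr differed by -3.49 (adjusted p = 0.0648), Igfbp5 by -3.26 (0.105), Ebf3 by -3.29 (0.125), Sparc by -2.44 (0.151), Kitl by -1.89 (0.196) and Vcam1 by -1.35 (0.149). Lpl differed by -0.64 (0.665), Adipoq by -0.31 (0.893), and Igfbp4 by 0.32 (0.401). The count hung on a few libraries. Without 5-FU 4, 11 of 17 passed and were lower, among them Cxcl12 (-10.24, adjusted p = 0.00728), Lepr (-7.39, 0.00796), Kitl (-3.92, 0.0216) and Igfbp5 (-12.71, 0.0159). Igfbp5 had no read in 5-FU 1 to 3, so the size of its value is set by the fit and was not measured. Without Untreated 3, 7 of 17 passed, Vcam1 among them (-1.77, 0.00171), and without both libraries 15 of 17 did. Without both Untreated 2 and 5-FU 4, the libraries with the most stromal RNA in their groups, 7 of 14 were lower and Igfbp4 was higher (0.45, 0.0456). Without Untreated 2 alone, 1 was lower and Igfbp4 was higher (0.69, 0.0312). These choices follow the stromal level itself, so the counts describe how the result depends on libraries and are no further tests. The share of all genes called was not taken for these fits.

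**Figure D2:**
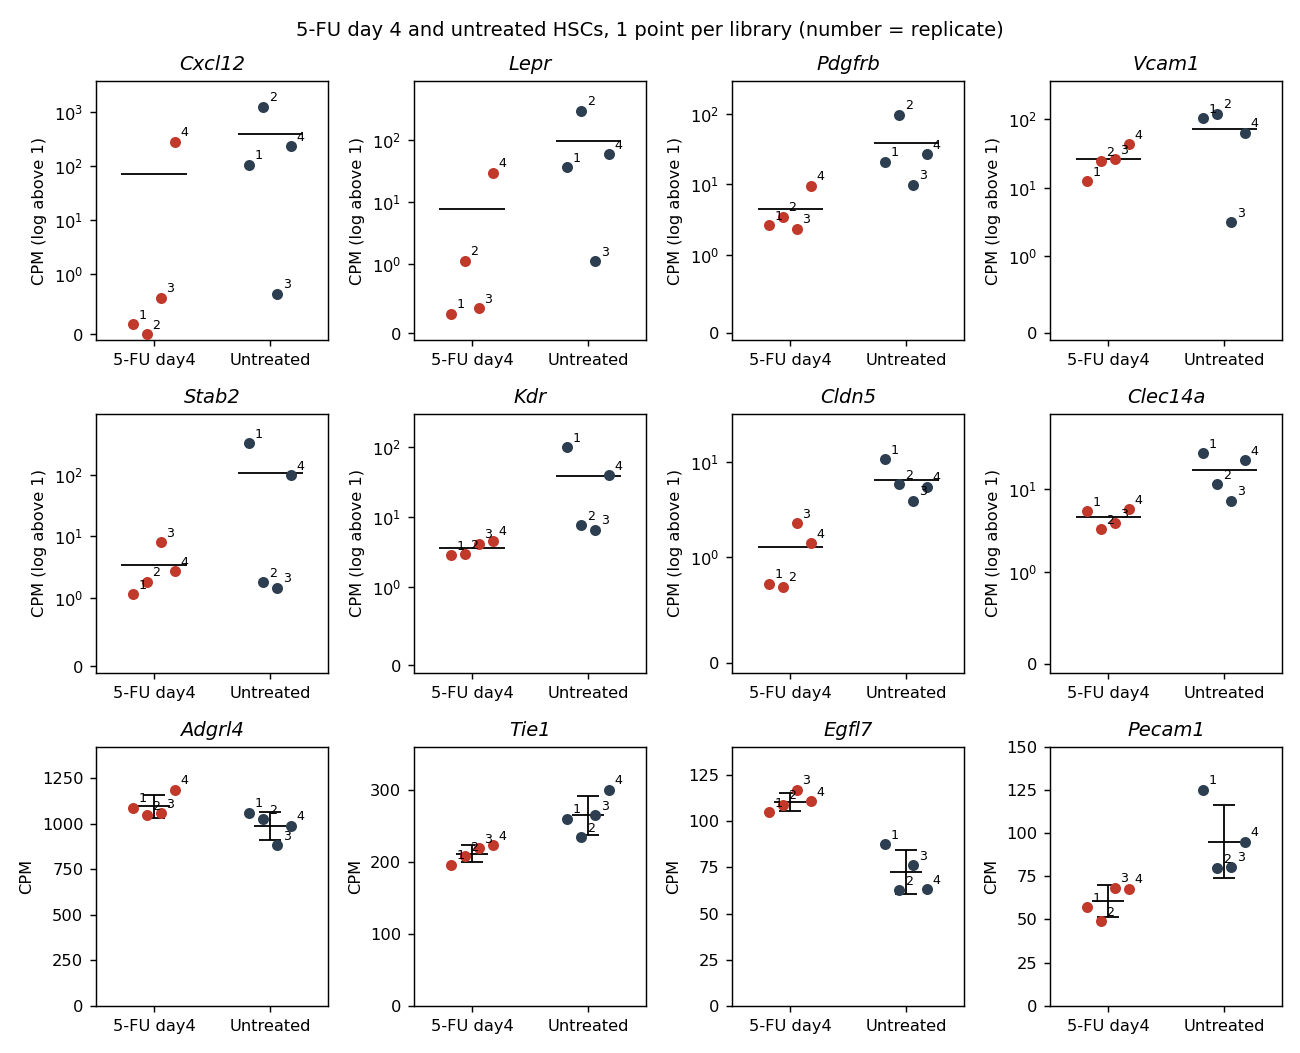
CPM of 12 genes in 5-FU and Untreated libraries (n = 4 each), with 1 numbered point per library. The upper 2 rows of panels use an axis that is linear up to 1 CPM and logarithmic above it, with the mean as a line, and the lowest row is linear, with mean and SD. Cxcl12 and Lepr are high in 5-FU 4 and near 0 in Untreated 3, Stab2 is high in Untreated 1 and 4 alone, and Egfl7 is above all untreated libraries in each 5-FU library.

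Endothelial and stromal genes were mostly highest in different untreated libraries, though Untreated 1 and 4 were high and Untreated 3 low in both classes. The 11 endothelial genes other than the abundant 5 summed to between 24.9 and 53.3 CPM after 5-FU (median 38.1), against 41.4 to 776 CPM in Untreated (median 240). Among untreated libraries, 13 of 16 endothelial genes were highest in Untreated 1, Plpp3 in Untreated 2, and Tie1 and Ramp2 in Untreated 4. Untreated 3 was again the lowest, for 12 of 16. After 5-FU, 8 were highest in 5-FU 4, 7 in 5-FU 3 and Emcn in 5-FU 2. The libraries with the most stromal RNA, Untreated 2 and 5-FU 4, therefore did not hold the most endothelial RNA of the untreated group or stand far above the 5-FU group.

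**Figure D3:**
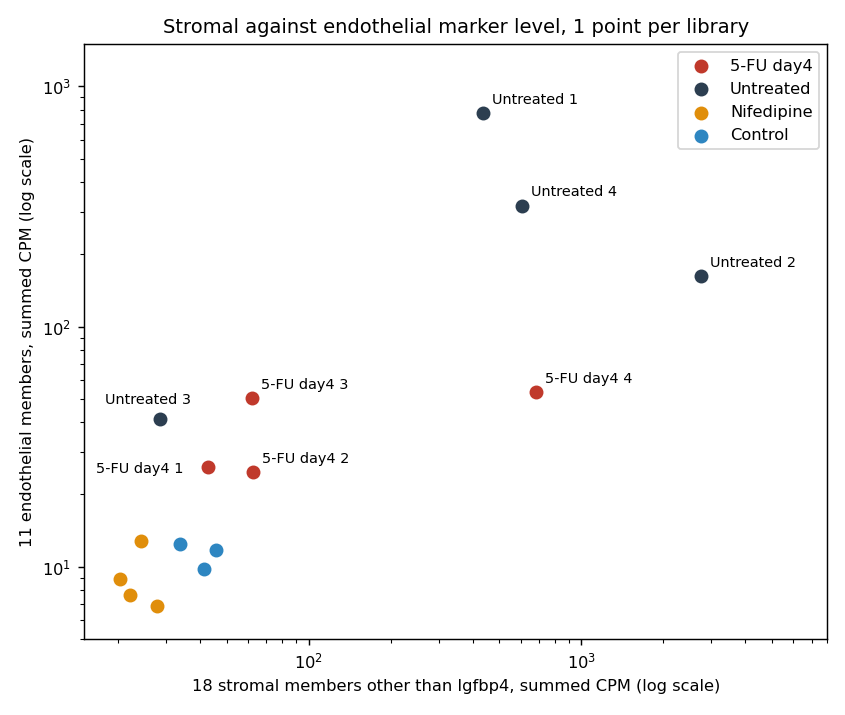
Summed CPM of the 18 stromal genes other than Igfbp4 (x axis, log scale) against that of the 11 endothelial genes other than Adgrl4, Pecam1, Emcn, Egfl7 and Tie1 (y axis, log scale), 1 point per library. Untreated 1 is the highest on the endothelial axis (776 CPM) and Untreated 2 on the stromal axis (2740 CPM). 5-FU 4 is high on the stromal axis (682 CPM) and at 53.3 CPM on the endothelial axis, the highest of its group. The cultured libraries lie at the lower left.

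Stab2 was at 1.15, 1.84, 7.99 and 2.71 CPM in 5-FU 1 to 4, against 326, 1.78, 1.47 and 97.7 CPM in Untreated 1 to 4. Untreated 2 and 3 lay within the range of 5-FU, so the groups overlapped. Dnase1l3, a secreted DNase of sinusoids and macrophages, was at 0, 0, 1.4 and 0.397 CPM, against 22.7, 1.3, 0.0614 and 22.5 CPM. Cdh5 was at 0.0575, 1.33, 5.67 and 0.331 CPM after 5-FU, against 80.3, 3.73, 0.86 and 18.2 CPM in Untreated, again with overlap. Cdh5 and Stab2 were low in the same untreated libraries that held most or least of the stromal RNA. Per 100 Stab2 reads, Untreated 1 held 30.8 Kdr, 24.6 Cdh5, 6.96 Dnase1l3 and 10.4 Plpp3 reads, against 40.6, 18.6, 23 and 35.2 in Untreated 4.

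Kdr was at 2.87, 2.97, 4.21 and 4.63 CPM in 5-FU 1 to 4, against 100, 7.78, 6.64 and 39.6 CPM in Untreated 1 to 4. Its groups did not overlap. Cldn5, a tight junction protein, was at 0.747, 0.716, 2.26 and 1.39 CPM after 5-FU, against 10.6, 5.83, 3.87 and 5.45 CPM in Untreated. Clec14a, a C-type lectin of vessel walls, was at 5.4, 3.27, 3.84 and 5.69 CPM, against 26.9, 11.5, 7.25 and 22.2 CPM. For Kdr, Cldn5 and Clec14a even the lowest untreated library, Untreated 3, lay above every 5-FU library. Adgrf5, a further adhesion receptor of endothelium, was at 1.9 to 6.75 CPM after 5-FU, against 6.21 to 47.1 CPM in Untreated. The phosphatase Ptprb (VE-PTP), which acts on Cdh5 junctions, was at 0.632 to 12.6 CPM, against 4.06 to 72.5 CPM. Plpp3, a lipid phosphatase, was at 4.5 to 11.8 CPM, against 9.52 to 71 CPM, and Fabp4, a fatty acid carrier, at 0.992 to 3.84 CPM, against 0.0614 to 50.4 CPM. Ramp2, a co-receptor for adrenomedullin, was at 2.46 to 6.08 CPM after 5-FU, against 1.35 to 8.53 CPM in Untreated.

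All 16 endothelial genes were tested between 5-FU and Untreated. Of these, 11 were lower, 2 were higher and 3 did not pass, beside 23.8% lower and 26.8% higher of all genes. The median log2 difference was -2.2. The largest falls were those of Stab2 (-4.86, SE 1.43, adjusted p = 0.0158), Dnase1l3 (-4.53, 0.0223), Cdh5 (-3.72, 0.0361) and Kdr (-3.32, SE 0.79, 0.00509). Adgrf5 fell by 2.78 (adjusted p = 0.00226), Ptprb by 2.48 (0.0472), Cldn5 by 2.24 (0.00196), Plpp3 by 2.17 (0.00524) and Clec14a by 1.81 (0.0027). Without Untreated 1, 7 were lower: Stab2 (-3.21, adjusted p = 0.0627), Dnase1l3 (-3.99, 0.0597), Cdh5 (-1.96, 0.211) and Ptprb (-1.4, 0.211) lost their calls, and Kdr kept it at -2.22 (0.0113). Dropping 5-FU 1 or 5-FU 2 also left 7. Stab2 kept its call without 5-FU 2 and lost it without 5-FU 1 (adjusted p = 0.0509), while Dnase1l3 lost it without Untreated 4 (0.056), 5-FU 1 (0.0597), 5-FU 2 (0.0611) or 5-FU 4 (0.0536). Cdh5 lost its call without 5-FU 1 (0.0857), 5-FU 2 (0.0899) or 5-FU 4 (0.0844), and Ptprb without Untreated 4 (0.074), 5-FU 1 (0.0998), 5-FU 2 (0.114) or 5-FU 3 (0.113). Values also shifted without 5-FU 3, to -5.77 for Stab2, -6.23 for Dnase1l3 and -5.66 for Cdh5, and without 5-FU 4, to -3.62 for Ptprb. Kdr, Cldn5, Clec14a, Adgrf5 and Plpp3 kept their calls in every fit that left out a library. The share of all genes called was not taken for any alternative fit. With limma-voom 5 were lower: Kdr (-2.71, adjusted p = 0.0945), Adgrf5 (-2.44, 0.0551), Stab2 (-3.14, 0.367), Dnase1l3 (-4.07, 0.316), Cdh5 (-3.81, 0.257) and Ptprb (-2.63, 0.128) lost their calls.

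The abundant endothelial genes differed little between fresh groups, and in both directions. Egfl7 was at 105, 109, 117 and 111 CPM in 5-FU 1 to 4, against 87.7, 62.7, 76.1 and 63.3 CPM in Untreated 1 to 4. All 5-FU libraries lay above all untreated ones, and the log2 difference was 0.68 (SE 0.1, adjusted p = 0.000347). Adgrl4 averaged 1100 ± 63.7 CPM after 5-FU and 990 ± 77.2 CPM in Untreated (SD, n = 4 each), higher by 0.23 (SE 0.06, adjusted p = 0.00878) with overlapping groups. Pecam1 (CD31), an adhesion molecule of endothelium and blood cells, was at 57, 49.1, 68.5 and 67.9 CPM, against 125, 79.6, 80.5 and 94.9 CPM. Pecam1 fell by 0.57 (adjusted p = 0.01) without overlap, a call lost when libraries were scaled to the authors' RPKM read total (-0.37, 0.0506). Tie1 averaged 212 ± 11.9 CPM after 5-FU and 265 ± 27.2 CPM in Untreated. It fell by 0.25 (0.0197), a call lost without Untreated 4 (0.0517), without 5-FU 2 (0.0526) and on that RPKM scale (-0.05, 0.598). It moves the median of all genes up by 0.2. The sialomucin Emcn averaged 39.6 ± 3.51 CPM after 5-FU and 48.9 ± 4.84 CPM in Untreated, and missed the threshold (-0.23, 0.075). The other genes that did not pass were Fabp4 (-2.92, 0.0633; 0.0355 without Untreated 2 and 0.00752 without Untreated 3) and Ramp2 (-0.03, 0.962).

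Further lists of marker genes varied between the same libraries. Of all genes tested, 23.8% were lower and 26.8% higher after 5-FU. Among 28 other stromal genes, 24 were tested, 1 was lower and 3 were higher, with a median of -1.07. The 3 with the smallest p were the higher ones: the basement membrane collagens Col4a2 (0.58, adjusted p = 0.000122) and Col4a1 (0.65, 0.000594), and the matrix protein Postn (3.49, 0.000373). In 5-FU 1 to 3 and Untreated 3, 6 to 8 of these 28 genes had no read, against 1 in 5-FU 4 and 0 in Untreated 1, 2 and 4. Of 28 other endothelial genes, 16 were tested, with 5 lower and 3 higher. The 3 with the smallest p were the adhesion receptor Selp, also a platelet gene (2.41, 0.000153), the guidance receptor Robo4 (-0.91, 0.000528) and the water channel Aqp1 (1.06, 0.00453). Their sums were 475 to 588 CPM after 5-FU, against 856 and 743 CPM in Untreated 1 and 4 and 484 and 477 CPM in Untreated 2 and 3. On the list of 14 endothelial genes known in HSCs, 9 were lower and 1 was higher, with a median of -0.24.

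Marrow macrophage genes summed to 125, 164, 152 and 217 CPM in 5-FU 1 to 4, against 457, 278, 69.6 and 225 CPM in Untreated 1 to 4. They too were highest in Untreated 1 and lowest in Untreated 3. The smallest p between 5-FU and Untreated was that of Mertk, a receptor for dying cells, which did not pass (-0.82, adjusted p = 0.0606). All 15 had reads in every fresh library. Vcam1, an adhesion molecule of stroma, endothelium and marrow macrophages, stands on both lists. It was at 12.4, 24, 25.7 and 42.9 CPM after 5-FU, against 102, 118, 3.13 and 63 CPM in Untreated, and so was well above 0 in 5-FU libraries with next to no Cxcl12. Erythroid genes summed to 352 to 438 CPM after 5-FU, against 2149 and 2402 CPM in Untreated 2 and 4 and 149 and 169 CPM in Untreated 1 and 3. The globin gene Hbb-bs alone was at 780 and 980 CPM in Untreated 2 and 4, while no 5-FU library held more than 12.8 CPM. Its order of libraries is neither that of the stromal nor that of the endothelial genes. Granulocyte genes were low throughout, at 8.68 to 13.9 CPM after 5-FU, against 17.5 to 25 CPM in Untreated, and lymphoid genes stood at 14.5 to 22.2, against 21.4 to 30.2 CPM. The part of these other cells' RNA in the differences between 5-FU and Untreated was not tested.

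**Figure D4:**
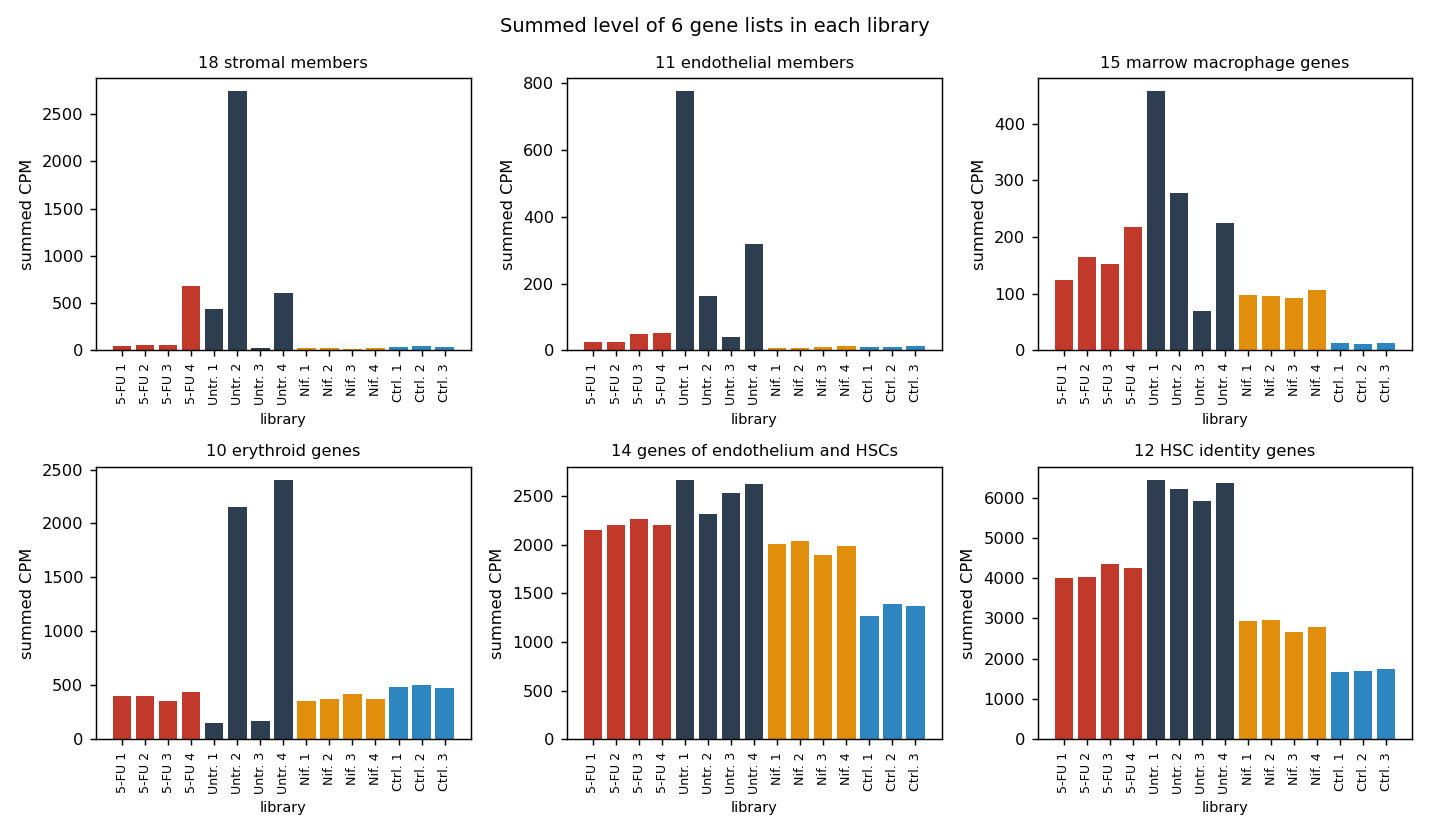
Summed CPM of 6 gene lists in each of the 15 libraries, with 1 bar per library, 5-FU in red, Untreated in dark blue, Nifedipine in orange and Control in light blue. Stromal, endothelial, macrophage and erythroid lists vary between untreated libraries, each with its own order, while the list of endothelial genes known in HSCs and the HSC identity genes lie close together within each group.

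Most of the niche genes that varied between fresh libraries had few or no reads in the cultured ones, with exceptions such as Lpl and Spp1. In all 7 cultured libraries, 10 of the 35 genes had no read: the stromal Cxcl12, Adipoq, Vcam1, Col3a1, Igfbp5, Dcn and Lum, and the endothelial Cldn5, Fabp4 and Dnase1l3. Over their 149711010 exon reads, a count of 0 allows up to 0.02 CPM. Ebf3 and Ptprb had 1 to 3 reads over all cultured libraries. By contrast, 29 of the 35 genes had reads in all 4 untreated libraries, and 15 in all 15 libraries.

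Control was compared with Untreated to set cultured beside fresh cells; culture and experiment cannot be told apart here, and both groups also serve in the other comparisons. Of the 18 stromal genes tested, 15 were lower and 3 did not pass, with a median log2 difference of -6.97, or -5.64 with the 8 genes at 0 set to their bound. Of the 16 endothelial genes, 15 were lower and 1 was higher, with a median of -3.95. Of all 13518 genes tested, 72.0% passed, 35.8% higher and 36.2% lower, with a median of -0.05. The 8 stromal and 3 endothelial genes with no read in Control passed the filter for low counts through Untreated alone. They could therefore only come out lower. Taking 3 reads over the Control group as the floor, Cxcl12 was at least 5480-fold lower in Control, Vcam1 at least 1430-fold, Igfbp5 at least 938-fold, Fabp4 at least 456-fold, Dnase1l3 at least 301-fold and Cldn5 at least 150-fold. These bounds use reads summed over each group, reflect counting error alone and do not hold library by library. Of 12929 Cxcl12 reads in Untreated, Untreated 2 held 7781 and Untreated 3 held 11. In Untreated 3, Fabp4 and Dnase1l3 were each at 0.0614 CPM. The stromal genes that did not pass were Igfbp4, Lpl and Spp1. With limma-voom only 1 stromal and 8 endothelial genes were called lower, so most stromal calls depended on the method. The share of all genes called was not taken for this or the other alternative fits. Leaving out any of Untreated 1, 2 or 4 left 12 stromal genes with enough reads to be tested, of which 9 were lower. The genes no longer tested had few or no reads in Untreated 3, so too few libraries were left to meet the filter for low counts. Without Untreated 3, 17 of 18 were lower. Foxc1 lost its call without Control 3 (adjusted p = 0.0566), Kdr without Control 1 (0.0632) or Control 3 (0.0608), and Cdh5 without any Control library (0.0619 to 0.0702).

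The abundant endothelial genes were lower in Control by far smaller factors. Adgrl4 was at 468, 406 and 403 CPM in Control 1 to 3, against 1061, 1027, 883 and 990 CPM in Untreated 1 to 4 (log2 difference -0.91, SE 0.09, adjusted p = 8.19e-06). Tie1 differed by -0.69 (6.15e-05), Egfl7 by -1.43 (1.89e-05) and Emcn by -2.12 (1.1e-06), all without overlap. Pecam1 was at 106, 132 and 117 CPM in Control, against 125, 79.6, 80.5 and 94.9 CPM in Untreated, and was higher in Control by 0.62 (SE 0.15, adjusted p = 0.00427) with overlapping groups. Beside them, 10 of 12 HSC identity genes were lower and 1 was higher, and all 15 macrophage genes were lower. Of all genes tested, 36.2% were lower and 35.8% higher.

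Nifedipine against Control is the second comparison of the design, between cultured HSCs with and without the drug. Of the 16 endothelial genes 10 could be tested, of which 4 were higher and 6 did not pass, against 25.8% higher and 24.2% lower of all 12805 genes (49.9% in all). The 4 were among the abundant genes. Adgrl4 was at 944, 925, 860 and 914 CPM in Nifedipine 1 to 4, against 468, 406 and 403 CPM in Control 1 to 3. The groups lay far apart, and the log2 difference was 1 (SE 0.07, adjusted p = 1.29e-09). Egfl7 was at 44.7, 50.9, 44.6 and 40.7 CPM with nifedipine, against 17.7, 22.8 and 25.2 CPM in Control (0.96, SE 0.12, 3.48e-06). Tie1 was at 205, 223, 189 and 203 CPM, against 130, 129 and 141 CPM (0.53, SE 0.07, 4.57e-06). Emcn was at 16.3, 18.6, 14.5 and 16.6 CPM, against 10.8, 8.54 and 7.96 CPM (0.76, SE 0.16, 0.000729). In each of these genes every Nifedipine library lay above every Control library.

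**Figure D5:**
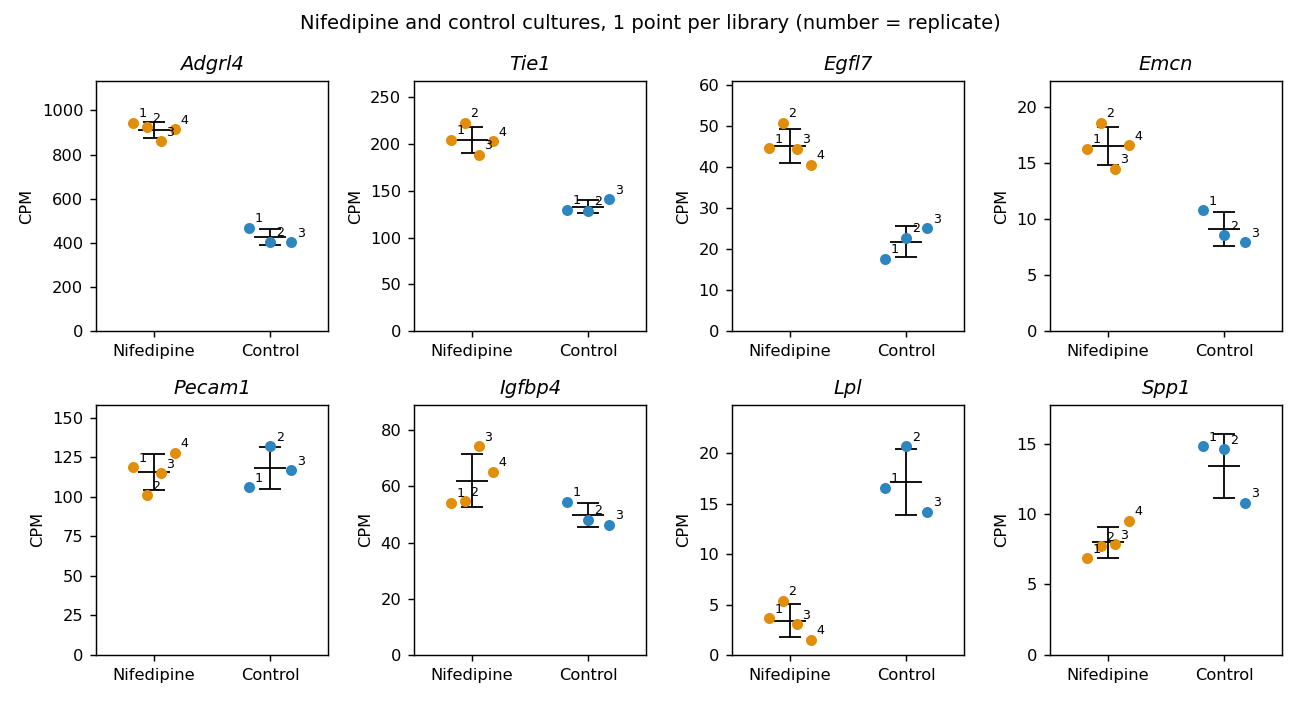
CPM of 8 genes in Nifedipine (n = 4) and Control (n = 3) libraries on linear axes from 0, with 1 numbered point per library and the mean and SD in black. Adgrl4, Tie1, Egfl7 and Emcn are higher with nifedipine and Lpl and Spp1 lower, all without overlap, while Pecam1 and Igfbp4 overlap.

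Pecam1, the remaining abundant gene, averaged 116 ± 11 CPM with nifedipine and 118 ± 13.2 CPM in Control (SD, n = 4 and 3; -0.12, SE 0.09, adjusted p = 0.269). Kdr (-0.57, adjusted p = 0.169), Plpp3 (-0.6, 0.166), Cdh5 (-0.04, 0.962), Stab2 (0.02, 0.983) and Adgrf5 (-0.04, 0.977) did not pass either, at 0.405 to 4.37 CPM on average in either group. Clec14a had too few reads to be tested: it had 0, 4, 11 and 0 reads in Nifedipine 1 to 4, against 2, 0 and 0 reads in Control 1 to 3. The median over the 10 tested genes was -0.01, against 0.02 over all genes. Of the 14 endothelial genes known in HSCs, 10 were higher and 4 did not pass, beside 25.8% higher of all genes. The 14 include Tie1, Egfl7, Emcn and Pecam1. Among the 14, those with the smallest p were Mecom (0.83, adjusted p = 2.93e-08), Procr (1.99, 1.05e-07) and Erg (0.54, 3.95e-06). Beside them, 9 of 12 HSC identity genes were higher and 2 were lower, led by Hlf, a transcription factor of HSCs (1.43, 1.11e-10). Of the endothelial genes, Cldn5, Fabp4 and Dnase1l3 were at 0 in all these libraries. Kdr (2.22 to 5.61 CPM), Plpp3 (2.28 to 6.35 CPM), Cdh5 (0.402 to 2.53 CPM) and Stab2 (0.199 to 0.682 CPM) had reads in every one of them.

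Of the 19 stromal genes, 7 could be tested between Nifedipine and Control, of which 2 were lower and 5 did not pass, with a median of -0.08. Of all genes tested, 24.2% were lower and 25.8% higher, so the share of stromal genes called lower is near that of all genes. Lpl was at 3.62, 5.4, 3.07 and 1.5 CPM with nifedipine, against 16.6, 20.7 and 14.2 CPM in Control (log2 difference -2.44, SE 0.28, adjusted p = 1.03e-06). Spp1 was at 6.88, 7.73, 7.85 and 9.52 CPM, against 14.8, 14.6 and 10.8 CPM (-0.84, SE 0.18, 0.000807). Neither gene's groups overlapped, and both calls were lost with all 4 groups in 1 fit (0.0842 and 0.485), where the spread of Untreated and of 5-FU also enters the estimate. Igfbp4 averaged 62 ± 9.56 CPM with nifedipine and 49.6 ± 4.27 CPM in Control (0.23, 0.0984), and passed as higher without Nifedipine 1 (0.29, 0.0469) or Nifedipine 2 (0.29, 0.0428). Col1a2 (0.64, 0.151), Pdgfrb (-0.17, 0.672), Kitl (-0.08, 0.95) and Foxc1 (0.54, 0.648) did not pass. The remaining 12 stromal genes had at most 1.59 CPM in any cultured library and were not tested. Among them, Pdgfra had 0, 6, 8 and 3 reads in Nifedipine 1 to 4 (0.218 ± 0.181 CPM, SD, n = 4) and 0 in Control. Summed over the groups it was at least 4.71-fold higher, a bound of counting error alone, with reads near the floor and overlapping groups.

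In culture, 25.8% of all genes tested were higher with nifedipine and 24.2% lower. Of the macrophage genes in culture, 7 were tested and 4 were higher with nifedipine, led by Hmox1, which breaks down haem (3.99, adjusted p = 4.65e-13), and Slc40a1, the iron exporter ferroportin (4.3, 3.09e-10). Their list summed to 93.3 to 107 CPM with nifedipine, against 11.8 to 13.3 CPM in Control. Hmox1 was at 50.2, 52.8, 50.9 and 59.7 CPM with nifedipine, against 2.96, 3.08 and 3.41 CPM in Control, and Slc40a1 at 32.2, 27.5, 34 and 34.8 CPM, against 0.712, 1.69 and 2.32 CPM. Of the 15 genes on the list, 6 to 8 had more than 3 reads with nifedipine, against 7 to 8 in Control, and 6 to 7 had no read with nifedipine, against 7 to 8 in Control. Mrc1, a receptor of marrow macrophages, had 3 to 38 reads with nifedipine, against 5 to 38 in Control. Other stromal genes rose in 9 of 15 tested cases and fell in 2, among them Col4a2 (1.25, 3.32e-10) and Col4a1 (0.9, 9.88e-08), higher, and fibronectin (Fn1; -1.4, 1.24e-08), lower. Of the other endothelial genes, 5 of 11 were higher and 2 lower, among them Selp (2.48, 3.22e-09), Plxnd1, a semaphorin receptor (1.59, 2.85e-07), and Robo4 (1.9, 9.62e-07). The part of other cells' RNA in these differences was not tested.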

How the data were processed

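RNA was measured in 15 libraries, each from 100 sorted HSCs, prepared by Nextera XT per the labels' protocols; strand is not kept by that kit. The deposited tables give, per the file headers, total exon reads (counts per gene, not normalised) and RPKM; the read total behind the authors' RPKM was 24325305 to 68637055 per library, of which exon reads were 25.0 to 38.9%. The submitters' processing notes name mm10; the sources used here name no aligner or counter. The 48737 features became 46120 genes by adding up 4540 scaffold copies. Counts were fitted across all genes with edgeR 4.0.16 (TMM, filterByExpr, glmQLFTest) in R 4.3.3, each comparison on its own groups, with calls at adjusted p up to 0.05 over all genes tested. DESeq2 1.42.0, limma-voom (limma 3.58.1), other filters, features as deposited, the RPKM read total as library size, all groups in 1 fit, a replicate block and leaving out libraries were alternatives. The fit was tested on simulated data. CPM are not TMM scaled; fold changes are. Common biological variation (edgeR) was 0.202 for 5-FU against Untreated, 0.13 for Nifedipine against Control and 0.213 for Control against Untreated. Members and lists were chosen with earlier results of these data known. Values of every library are given for members that passed a comparison or averaged at least 10 CPM in a group, as far as results turn on them; of other lists, counts, sums and the 3 smallest p. Hbb-bs, Mrc1 and per-library values of Hmox1 and Slc40a1 were chosen after their values were seen. Promoters are RefSeq's. The analysis used Python 3.11.15.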

Additional observations from a re-analysis of the deposited data

Results flagged for a closer look

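In groups of 4 libraries, 99 values (a member, or a summed level, in a group) were examined for a highest or lowest library whose gap to its nearest neighbour exceeded Dixon's 95% critical share of the group's range, and 21 did. Dixon's rate of about 1 in 20 holds for normally distributed values. CPM are skewed, and a gene with reads in only 1 library of a group is flagged by construction. The 21 therefore cannot be set against that rate, and genes of the same library are not independent. Of the 21, 15 were high values in 5-FU 4: Cxcl12 (283 CPM), Kitl (36.6), Lepr (29.2), Adipoq (25.7), Col1a2 (30.8), Col3a1 (4.76), Sparc (26.1), Igfbp4 (155), Igfbp5 (24.1), Dcn (0.0661, which is 1 read), Pdgfra (11.2), Pdgfrb (9.59), Ebf3 (7.21), Lpl (124) and the summed stromal level (838 CPM, against 132 to 154 in 5-FU 1 to 3). No endothelial gene stood apart in that library. In Untreated 2, Kitl (144 CPM), Adipoq (29.5) and Foxc1 (16.9) stood apart from at most 26.1, 3.36 and 3.77 CPM in the other untreated libraries. In culture, Col1a1 was at 1.59 CPM in Nifedipine 4 with no read in Nifedipine 1 to 3, Col1a2 at 10.2 CPM in Nifedipine 1 against 3.75 to 4.6 in the other three, and Ebf3 at 0.0488 CPM, 1 read, in Nifedipine 3. The causes were not tested.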

How the results depend on the processing

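For 5-FU against Untreated, 2 stromal members were called lower. Limma-voom, a minimum of 10 CPM and the RPKM read total as library size each gave 1, and leaving out a library gave 1 to 11. Leaving out both Untreated 3 and 5-FU 4 gave 15, and leaving out Untreated 2 and 5-FU 4, chosen after seeing the data, gave 7. Both pairs follow the stromal level itself, so their counts are no further tests. Stromal members called higher numbered 0, 0 to 1 without a library, and 1 without Untreated 2 and 5-FU 4. The 11 endothelial members called lower became 5 with limma-voom, 7 with the replicate block and 7 to 12 without a library. For Nifedipine against Control, the 2 stromal members called lower became 0 with all 4 groups in 1 fit, and those called higher numbered 0 to 1 without a library; the endothelial counts were within 1.5 times throughout. For Control against Untreated, stromal members called lower went to 1 with limma-voom (15 without), 9 with the replicate block and 9 to 17 without a library, and endothelial ones to 8 with limma-voom (15 without). No member's call changed sign under any alternative run. The share of all genes called was taken for the main fits alone. Replicate numbers did not pair the libraries: same-numbered libraries' deviations correlated at -0.14 to 0.16 for 5-FU and Untreated, 0.01 to 0.05 for Nifedipine and Control and 0 to 0.03 for Control and Untreated, so the block is given as an alternative alone. A count of 3 reads is 0.112 to 0.486 CPM by library, which limits what can be said of Dcn, Lum and Ebf3.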

Other observations

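Osteoblast lineage genes summed to 149 to 182 CPM after 5-FU, against 190 to 352 CPM in Untreated, and 6 of the 12 were tested, of which 2 were lower and 2 higher. Adipocyte genes, which share Adipoq, Lpl and Fabp4 with the niche markers, summed to 28.7, 31.4, 38.9 and 166 CPM in 5-FU 1 to 4, against 114, 271, 18 and 60.4 CPM in Untreated 1 to 4. Pericyte and smooth muscle genes summed to 19.3 to 33.6 CPM after 5-FU, against 29.1 to 97.9 CPM in Untreated, and 2 of the 5 tested were lower. Megakaryocyte and platelet genes, several of them known in HSCs, summed to 828 to 952 CPM after 5-FU, against 1121 to 1307 CPM in Untreated, with 3 of 8 lower and 1 higher. In culture, pericyte genes stood at 6.97 to 10.2 CPM with nifedipine, against 6.3 to 8.89 CPM in Control, and osteoblast lineage genes at 165 to 174 CPM, against 74.3 to 81.2 CPM. Of 4 osteoblast lineage genes tested there, Spp1 among them, 1 was higher and 1 lower. Of the 12 on that list, 6 to 7 had no read with nifedipine, against 7 to 8 in Control, so few genes make up these sums. Over all genes, 26.8% were higher and 23.8% lower after 5-FU, and 25.8% higher and 24.2% lower with nifedipine.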
